A study of Homo sapiens with 18 samples.

Results

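Wild-type (WT) and JNK knockout (JNKKO) acini grown under a HER2 dimerizer were compared by RNA sequencing, 3 libraries of each genotype. The members are these 6 libraries, taken by their column names, of 18 libraries in 6 groups in all. MCF-10A.B2 cells are MCF-10A human mammary epithelial cells, an immortal non-tumour line, that carry a chimeric receptor: the extracellular part of NGFR, the kinase part of HER2 (ERBB2) and binding domains for a cell-permeable dimerizer, so that HER2 signalling can be started without a ligand. Both genotypes carry this receptor. Acini grew for 21 days in all on growth factor reduced Matrigel; from day 7 the EGF in the medium was replaced, for 14 days, by the B/B homodimerizer, by ethanol (control), or by the dimerizer with TGF-beta1. The compared groups are therefore WT with dimerizer and JNKKO with dimerizer, both without EGF. Which JNK gene was disrupted, how, and whether the JNKKO cells are 1 clone or a pool is not given in the sources used here. Nor do they say whether replicates are separate cultures, and p-values here reflect no more than the variation among these libraries, which may be technical.

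The c-Jun N-terminal kinases (JNK1, JNK2 and JNK3, from MAPK8, MAPK9 and MAPK10) are stress-activated MAP kinases. They are switched on by the kinases MKK4 and MKK7, and they phosphorylate JUN and other members of the AP-1 family of transcription factors. In cultured mammary acini JNK has been linked to the death of cells that fill the lumen and to the polarity of the outer cell layer, and dimerized HER2 is known to drive proliferation and to disrupt the hollow structure.

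Library totals were 24243537 to 34499651 expected counts, and mitochondrially encoded genes took 8.73% to 9.13% of them in all 6 libraries. The first principal component of the 6 libraries held 55.91% of the variance and separated the genotypes. The second, with 13.13%, set JNKKO replicate 2 (28.71) apart from JNKKO replicate 1 (-26.54), and JNKKO replicate 2 differed more from the other JNKKO libraries (chi-square per gene 6.37 and 6.54) than any other pair within a genotype did (2.28 to 3.04). Of 10 genes of mammary epithelial identity all were expressed, with summed levels of 10043 to 10813 CPM (counts scaled by library size) in JNKKO and 11073 to 11518 in WT, led by KRT5. All levels below are CPM after TMM scaling, listed for replicates 1, 2 and 3 in that order, and ± is the SD over 3 libraries. Differences are JNKKO minus WT on the log2 scale with their standard error, and p is the Benjamini-Hochberg adjusted p of edgeR's quasi-likelihood test over 16911 genes, called under 0.05.

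The JNK genes gave a partial check of the labels, since the targeted one is not named. MAPK9 read 44.5, 42.7 and 44.2 CPM in JNKKO and 57.1, 59.4 and 61.4 in WT, a difference of -0.44 ± 0.04 (adjusted p = 4.21e-09), with no overlap between genotypes. MAPK8 read 29.9, 29.3 and 28.9 in JNKKO and 28.6, 31.1 and 29.6 in WT and did not pass on counts (-0.02 ± 0.05, adjusted p = 0.811), although it was called lower (-0.45) on log2(TPM + 1), the deposited values per transcript length. MAPK10 was higher, at 6.99 ± 0.732 against 5.04 ± 0.489 (0.47 ± 0.11, adjusted p = 0.000904). A knockout made by small coding changes can leave the RNA in place, so these levels do not show whether the proteins are lost. The dimerizer receptor shares sequence with ERBB2 and NGFR, and reads of the transgene cannot be told apart here from those of the endogenous genes. ERBB2 read 55.7 ± 2.198 in JNKKO and 61.8 ± 0.685 in WT (-0.15 ± 0.05, adjusted p = 0.00922), and NGFR 256 ± 10.48 and 211 ± 9.46 (0.28 ± 0.09, adjusted p = 0.0313). The NGFR call was lost when any of 4 of the 6 libraries was left out (JNKKO replicates 2 and 3, WT replicates 2 and 3) and on TPM. The ERBB2 call was lost without JNKKO replicate 3.

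Of 16911 genes tested, 6775 were called (40.1%): 3654 were higher in JNKKO (21.6%) and 3121 lower (18.5%). At least 2-fold changes were 910 (5.38%), of which 542 were higher (3.21%) and 368 lower (2.18%). Without JNKKO replicate 2 the counts were 3386 and 2898, with 890 of at least 2-fold. The genotypes' libraries did not overlap for 8506 genes (50.3%). The balance of directions differed between counts with TMM scaling and TPM, which was used without TMM scaling and with another test. Of called genes, 53.9% were higher in JNKKO on counts and 24.6% on log2(TPM + 1). The TMM factors were 0.962 to 0.967 in JNKKO and 1.032 to 1.038 in WT. Unit, scaling and test changed together, and the part of each was not tested. On log2(TPM + 1) the median of all genes moved from 0.004 to -0.094 (-0.128 with a pseudocount of 0.1). Small differences close to this shift, such as those of EGFR and HSPD1, had the opposite sign on TPM, and lists whose majority turns on TPM are marked as such.

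**Figure D1:**
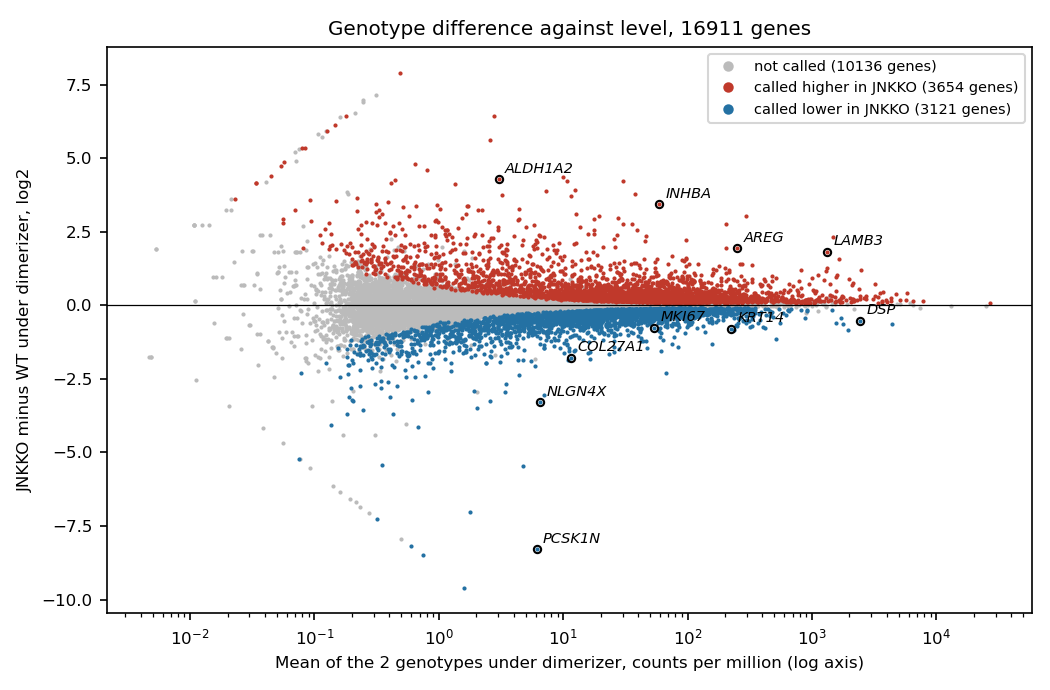
Difference between genotypes under dimerizer (JNKKO minus WT, log2) against the mean level of both genotypes (CPM, log axis) for 16911 genes. Red points are the 3654 genes called higher in JNKKO, blue the 3121 called lower and grey the rest; circles mark the labelled genes, which run from PCSK1N at -8.28 to ALDH1A2 at 4.29.

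The largest rises among genes of at least 5 CPM in the higher genotype spanned enzymes, receptors and secreted factors. INHBA, which encodes the subunit of activin A, read 103, 111 and 111 CPM in JNKKO and 11.5, 8.52 and 10.1 in WT (3.44 ± 0.17, adjusted p = 3.72e-09). The genotypes stood apart in all 6 libraries, with the lowest JNKKO library several times above the highest WT library. ADCY1, an adenylate cyclase, read 4.91, 5.72 and 5.95 in JNKKO and 0.133, 0 and 0.0562 in WT (6.43 ± 0.35, adjusted p = 1.42e-14). TEK, the receptor for angiopoietins, rose from 0.939 ± 0.167 to 19.1 ± 2.13 (4.35 ± 0.18). Vitamin A and folate enzymes were among them: ALDH1A2, which makes retinoic acid, rose from 0.294 ± 0.112 to 5.802 ± 0.729 (4.29 ± 0.32), ALDH1L1 from 0.899 ± 0.373 to 13.6 ± 0.206 (3.88 ± 0.17) and AOX1, aldehyde oxidase, from 1.64 ± 0.0907 to 21.6 ± 3.92 (3.72 ± 0.14). The others were DNAH11 (5.61), the citrullinating enzyme PADI4 (4.22), INSC (3.90), the secretory granule protein CHGB (3.80), TMEM176B (3.73), the IGFBP protease PAPPA2 (3.26), the GABA receptor chain GABRA2 (3.10) and the inositol kinase ITPKA (3.04). PAPPA2 was uneven within JNKKO, at 4.399, 13.3 and 6.08.

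The largest falls included 1 near-complete loss. PCSK1N, the inhibitor of prohormone convertase 1, had 1, 1 and 1 counts in the JNKKO libraries and 403, 413 and 394 in the WT libraries, a WT to JNKKO ratio of 346.1 (exact 95% binomial interval 118.1 to 1680.5, for counting error only). DENND2D fell from 9.37 ± 0.226 to 0.217 ± 0.132 (-5.45 ± 0.24, adjusted p = 2.74e-16), and the synaptic adhesion gene NLGN4X from 11.8 ± 0.689 to 1.22 ± 0.252 (-3.28 ± 0.13). All 3 were also lower in JNKKO in control and with TGF-beta1, at -9.42 and -9.23 for PCSK1N, -3.48 and -6.55 for DENND2D, and -3.08 and -4.27 for NLGN4X. ACSS1, the mitochondrial enzyme that turns acetate into acetyl-CoA, read 22.7, 20.8 and 23.98 in JNKKO and 111, 102 and 121 in WT (-2.31 ± 0.22, adjusted p = 1.84e-06). The growth factor FGF1 read 2.18, 1.44 and 1.96 in JNKKO and 6.67, 6.83 and 6.74 in WT (-1.87 ± 0.16), and the chemokine CXCL14 0.726, 1.21 and 0.837 in JNKKO and 5.81, 6.07 and 6.18 in WT (-2.68 ± 0.19). The rest of the 15 were ASPA (-3.04), the decoy TRAIL receptor TNFRSF10C (-2.93), KBTBD7 (-2.38), RAMP1 (-2.08), NKX2-5 (-1.88), the IL-33 receptor IL1RL1 (-1.87), ADHFE1 (-1.85), PAPLN (-1.82) and the collagen COL27A1 (-1.78).

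**Figure D2:**
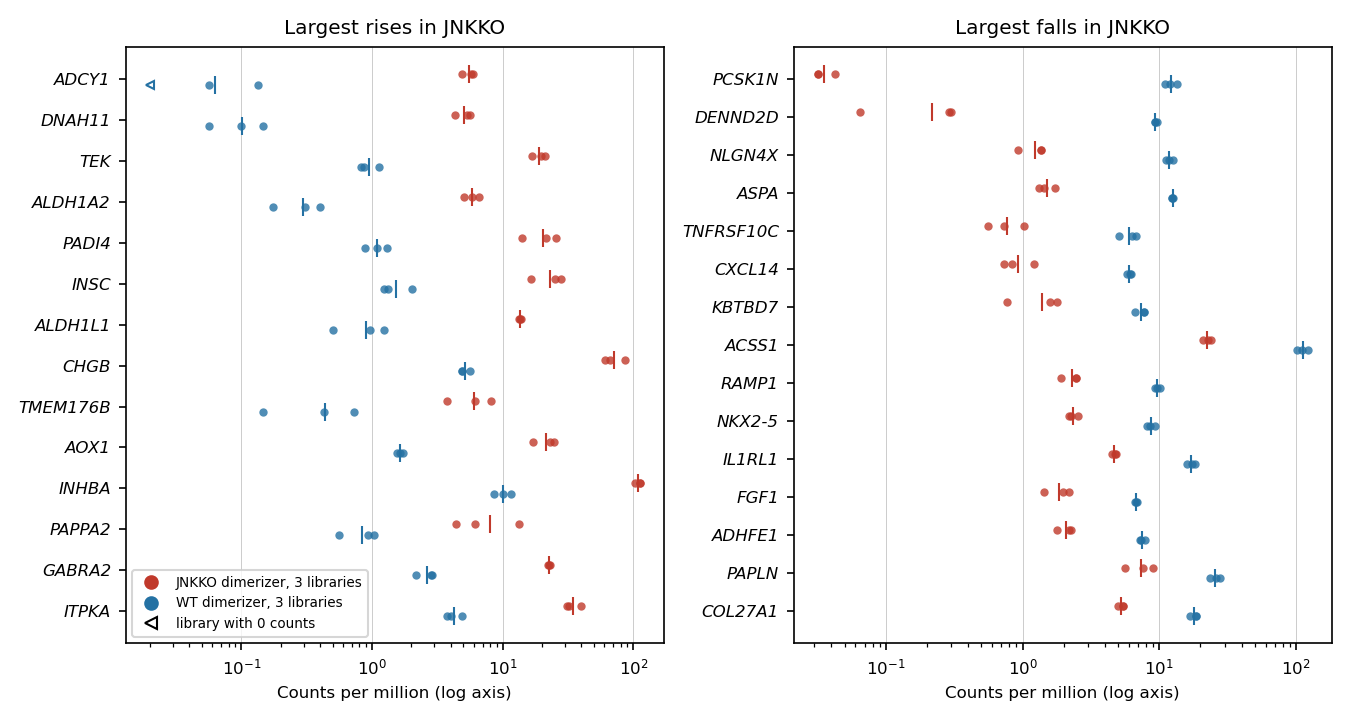
Level of 14 of the 15 largest rises (left) and of the 15 largest falls (right) in each library (CPM, log axis; red, JNKKO dimerizer; blue, WT dimerizer; tick, mean of 3; triangle at the left edge, a library with 0 counts). The genotypes do not overlap for any gene shown, which the rule required; INHBA reaches 111 CPM in JNKKO and ACSS1 121 in WT.

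Some genes had no count in any library of 1 genotype. In JNKKO these included ZNF502, with 320 counts over the WT libraries (at least 91.5-fold lower in JNKKO against a floor of 3 counts over the group), WT1 with 150 (at least 42.9-fold), POTEF with 120 (at least 34.3-fold) and PDE9A with 64 (at least 18.3-fold). The read-through gene BORCS7-ASMT had 105 counts in WT but none in WT replicate 1 and did not pass (adjusted p = 0.114), though it did with no filter and on log2(TPM + 0.1). The genes at 0 in WT with most counts in JNKKO were RP11-20G6.3 (85 counts, adjusted p = 0.0441), CXCR5 (47), RP11-16N10.2 (46), SPECC1L-ADORA2A (42) and CTD-2545G14.7 (30). Their counts were uneven among the JNKKO libraries, and only RP11-20G6.3 passed, a call lost without JNKKO replicate 1 or 3, without any 1 WT library, without WT dimerizer TGFb1 replicate 3 and with the replicate block. The other 4 gained a call with no filter, CXCR5 also by DESeq2 and SPECC1L-ADORA2A also on TPM. POTEF belongs to a family of near-identical copies, and read-through genes share exons with their neighbours, so their counts depend on how reads were split.

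JNK acts through AP-1, whose consensus site is TGAGTCA, so the 250 bases before the RefSeq start were searched for TGAGTCA on both strands (TGACTCA is the same site read on the other strand, and no other motif was searched). Of 16911 genes, 10682 had a promoter in the RefSeq table, and 2.92% of these (312) held the site, against 4.2% of all 35116 promoters in it. Among genes called at least 2-fold higher in JNKKO the share was 10% (32 of 320). It was 3.9% (8 of 205) among those at least 2-fold lower. The share was 3.59% (95 of 2644) among all genes called higher, 2.72% (61 of 2241) among all called lower and 2.69% (156 of 5797) among genes not called. No test was made of these shares, and a match is a description of letters, not a binding site. Among the 30 largest changes, 23 had a promoter and 4 held the site: PADI4 and INSC, which rose, and PCSK1N and CXCL14, which fell. LAMA3 and PLAUR, described below, also held it and are shown as 2 matrix-related genes that rose, chosen after their values were seen. The sequences are the 250 bases before the start on the gene's strand, from RefSeq (GRCh38.p14), with the site in capitals: PADI4 at chr1:17307947-17308196 (plus strand), INSC at chr11:15112174-15112423 (plus), PCSK1N at chrX:48835611-48835860 (minus), CXCL14 at chr5:135578992-135579241 (minus), LAMA3 at chr18:23872770-23873019 (plus) and PLAUR at chr19:43670170-43670419 (minus).
PADI4: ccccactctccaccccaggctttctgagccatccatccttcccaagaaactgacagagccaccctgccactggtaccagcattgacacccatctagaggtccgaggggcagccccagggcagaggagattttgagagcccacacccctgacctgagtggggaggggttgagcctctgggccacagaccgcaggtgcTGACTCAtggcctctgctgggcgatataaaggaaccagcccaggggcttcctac
INSC: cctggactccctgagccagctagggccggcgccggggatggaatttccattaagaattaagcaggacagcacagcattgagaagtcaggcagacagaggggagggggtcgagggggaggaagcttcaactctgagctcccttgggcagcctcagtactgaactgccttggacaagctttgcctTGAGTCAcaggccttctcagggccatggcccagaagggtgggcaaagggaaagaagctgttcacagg
PCSK1N: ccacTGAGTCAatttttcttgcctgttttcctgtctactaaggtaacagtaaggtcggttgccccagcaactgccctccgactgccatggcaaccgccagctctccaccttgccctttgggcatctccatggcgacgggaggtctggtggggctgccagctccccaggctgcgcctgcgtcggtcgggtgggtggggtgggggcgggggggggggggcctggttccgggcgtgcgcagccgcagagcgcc
CXCL14: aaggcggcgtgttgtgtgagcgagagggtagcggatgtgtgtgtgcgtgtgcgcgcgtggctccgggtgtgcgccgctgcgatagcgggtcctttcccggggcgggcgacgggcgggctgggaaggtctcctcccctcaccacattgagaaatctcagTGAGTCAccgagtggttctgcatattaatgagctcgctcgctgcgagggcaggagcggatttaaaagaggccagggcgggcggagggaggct
LAMA3: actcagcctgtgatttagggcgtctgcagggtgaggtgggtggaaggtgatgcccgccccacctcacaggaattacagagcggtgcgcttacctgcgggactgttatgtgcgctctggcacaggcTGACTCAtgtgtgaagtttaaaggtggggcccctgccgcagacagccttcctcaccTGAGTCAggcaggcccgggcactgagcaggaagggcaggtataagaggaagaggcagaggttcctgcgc
PLAUR: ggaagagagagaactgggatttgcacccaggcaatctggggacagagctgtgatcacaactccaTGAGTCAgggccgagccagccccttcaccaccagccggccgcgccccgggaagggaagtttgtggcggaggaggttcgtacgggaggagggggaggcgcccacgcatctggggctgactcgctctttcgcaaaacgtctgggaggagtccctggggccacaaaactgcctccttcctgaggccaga
LAMA3 holds the site in both orientations, its nearer copy ending 63 bases before the start. In PADI4 the site ends 48 bases before the start, in INSC 61, in CXCL14 86, in PLAUR 180 and in PCSK1N 240.

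Matrix adhesion genes were mostly higher in JNKKO, several of them at high levels. Laminin-332, whose chains include those of LAMA3 and LAMB3, anchors basal epithelial cells to the basement membrane through integrin alpha6 beta4 in hemidesmosomes. LAMB3 read 1983, 2228 and 2028 in JNKKO and 629, 563 and 573 in WT (1.82 ± 0.10), and LAMA3, whose promoter is shown above, 2378, 2507 and 2536 in JNKKO and 856, 828 and 839.5 in WT (1.56 ± 0.05). Both chains were thus well above WT in every JNKKO library. Of the 10 laminin-332 and hemidesmosome genes, 9 were higher and 1 lower (median 0.88), against 21.6% and 18.5% of all genes tested (median 0.004). Integrin beta4 (ITGB4) rose from 1516 ± 87.3 to 3489 ± 199 (1.20 ± 0.06), its partner ITGA6 by 0.45 ± 0.04, ITGA3 by 1.19 ± 0.06 and the linker PLEC by 0.56 ± 0.04. The exception was the linker DST, which read 1244 ± 18.5 in JNKKO and 1905 ± 36.3 in WT (-0.62 ± 0.08, adjusted p = 3.75e-05). The counts were 9 and 1 without JNKKO replicate 2 and on TPM as well.

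Integrin chains had 8 higher and 1 lower of 13 tested (median 0.55), or 8 and 2 without JNKKO replicate 2. The fibronectin receptor chain ITGA5 read 325, 310.5 and 332.3 in JNKKO and 87.5, 81.3 and 79.6 in WT (1.96 ± 0.11, adjusted p = 1.21e-08), ITGA10 rose by 1.39 ± 0.07, ITGB5 and ITGB6 by 0.79 and 0.79, and ITGB1 by 0.48 ± 0.03. Fibronectin itself (FN1) read 52.7, 38.9 and 56 in JNKKO and 7.04, 6.42 and 5.53 in WT (2.96 ± 0.46, adjusted p = 0.000189). Collagen chains were divided, with 10 higher and 6 lower of 20 tested (median 0.13), or 8 and 8 on log2(TPM + 1). The basement membrane chains COL4A1 and COL4A2 rose by 1.25 ± 0.10 and 1.14 ± 0.09 and the anchoring fibril collagen COL7A1 by 0.72 ± 0.05, whereas COL5A3 fell (-1.17 ± 0.14). Plasminogen activation genes had 7 higher and 2 lower of 10 tested (median 0.77). The protease urokinase (PLAU) rose from 54.9 ± 1.75 to 139.6 ± 5.18 (1.35 ± 0.09) and its receptor PLAUR from 9.59 ± 0.619 to 24.1 ± 0.886 (1.33 ± 0.08), together with the inhibitor SERPINE2 (2.77 ± 0.11), so protease, receptor and this inhibitor were all higher. Metalloproteinases and their inhibitors had 8 higher and 3 lower of 24 tested (median 0.34): MMP14 rose by 0.40 ± 0.04, MMP11 by 1.55 ± 0.18 and the inhibitor TIMP3 by 0.75 ± 0.04, while MMP15 fell (-0.54 ± 0.10).

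Genes of the TGF-beta and activin pathways rose in part without TGF-beta1 in the medium. Activin and TGF-beta ligands bind paired receptor kinases that phosphorylate SMAD2 and SMAD3. The ligand and receptor list had 8 higher and 2 lower of 20 tested (median 0.04), led by INHBA, or 7 and 4 on log2(TPM + 1). The latency protein genes LTBP1 and LTBP2 rose by 1.13 ± 0.10 and 0.82 ± 0.06, the activin antagonist FSTL3 by 0.68 ± 0.07, the activin receptor ACVR1B by 0.41 ± 0.05 and TGFB1 by 0.74 ± 0.08. The co-receptor TGFBR3 read 41.7 ± 1.42 in JNKKO and 76.9 ± 2.29 in WT (-0.88 ± 0.09). SMADs and TGF-beta target genes had 12 higher and 3 lower of 20 tested (median 0.29), or 8 and 5 on log2(TPM + 1). Among targets, the feedback genes PMEPA1 (0.73 ± 0.07), SKIL (0.67 ± 0.06) and TGIF1 (0.51 ± 0.06) rose, TGM2 rose from 1.52 ± 0.262 to 10.02 ± 1.59 (2.73 ± 0.34) and ANGPTL4 from 16.6 ± 2.54 to 74.7 ± 9.01 (2.17 ± 0.20). TPM1 (-0.59 ± 0.05) and IGFBP3 (-1.53 ± 0.19) fell, and SMAD3 was lower by a small amount (-0.25 ± 0.05). BMP signal and target genes were even, with 4 higher and 4 lower of 17 tested (median 0.06), shares near those of all genes (21.6% and 18.5%). ID1 rose from 38.3 ± 2.24 to 102 ± 6.83 (1.41 ± 0.11), the ligand gene BMP6 by 2.63 ± 0.31 and the decoy receptor BAMBI by 0.76 ± 0.12, while SMAD5 fell (-0.24 ± 0.04).

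Of the mesenchymal genes that were called nearly all were higher, and epithelial genes were divided. The mesenchymal list had 8 higher and 1 lower of 17 tested (median 0.33). Vimentin (VIM), an intermediate filament of mesenchymal and some cultured epithelial cells, read 2090, 1889 and 2187 in JNKKO and 1069, 1071 and 1000 in WT (0.97 ± 0.05, adjusted p = 1.06e-12). SNAI2 rose by 0.49 ± 0.05, TWIST2 by 0.57 ± 0.09, N-cadherin (CDH2) from 3.49 ± 0.255 to 5.67 ± 0.318 (0.71 ± 0.12) and the collagen crosslinker LOXL2 from 10.51 ± 0.721 to 41.5 ± 11.4 (1.97 ± 0.28), and S100A4 fell (-0.66 ± 0.08). E-cadherin (CDH1) read 79.4, 84.97 and 80.04 in JNKKO and 104, 107 and 107 in WT (-0.38 ± 0.06, adjusted p = 4.74e-05). Adherens and tight junction genes had 7 higher and 5 lower of 20 tested (median 0.04), but 5 and 9 on log2(TPM + 1). NECTIN1 (0.70 ± 0.04) and P-cadherin (CDH3, 0.42 ± 0.04) rose. The tight junction claudins were divided: CLDN1 fell from 106 ± 4.59 to 50.5 ± 4.28 (-1.07 ± 0.16), and CLDN4 rose by 1.09, the largest rise of the list. Epithelial transcription and splicing regulators had 3 higher and 5 lower of 14 tested (median -0.15), with EHF lower (-0.82 ± 0.09) and ESRP1 higher (0.29 ± 0.05, a call lost on TPM), but 3 were lower without JNKKO replicate 3, and on TPM 0 were higher and 8 lower.

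Apical-basal polarity genes, which set up the inside and outside of an acinus, had 3 higher and 8 lower of 16 tested (median -0.17), or 0 and 10 on log2(TPM + 1). LLGL2 read 32.2, 32.2 and 33.5 in JNKKO and 48.8, 47.8 and 46.7 in WT (-0.55 ± 0.07, adjusted p = 7.42e-07), and CRB3 (-0.50 ± 0.09), DLG5 (-0.25 ± 0.04), PARD6G (-0.24 ± 0.04) and PARD3 (-0.22 ± 0.05) fell. Desmosome genes had 2 higher and 6 lower of 12 tested (median -0.16). Desmoplakin (DSP), which ties desmosomes to keratin filaments, read 1982, 2055 and 1946 in JNKKO and 2880, 2821 and 2906 in WT (-0.52 ± 0.04, adjusted p = 3.57e-10), and the cadherins DSG3 (-0.60) and DSC3 (-0.31) fell, whereas the plakophilins PKP2 and PKP3 rose by 0.28 and 0.28. Basal and myoepithelial markers had 5 higher and 9 lower of 19 tested (median -0.10), with at most 3 higher in 9 alternatives: 2 without JNKKO replicate 2, JNKKO replicate 3 or WT replicate 2, 3 without WT replicate 1 or 3, with the replicate block or with the 6 libraries alone, and 1 on TPM. KRT14 fell from 283 ± 19.8 to 163 ± 6.68 (-0.79 ± 0.08), KRT17 (-0.44 ± 0.08) and KRT15 (-0.64 ± 0.11) fell too, KRT5 did not pass (-0.10 ± 0.07), and KRT6A, a keratin of activated epithelium, rose from 2452 ± 85.6 to 4004 ± 107 (0.71 ± 0.03). Luminal markers had 7 higher and 3 lower of 13 tested (median 0.23). KRT8 (0.72 ± 0.08), KRT18 (0.44 ± 0.04), KRT7 (0.68 ± 0.09) and PROCR (0.88 ± 0.05) were higher. No rise in the list reached 2-fold, and the 2 called changes of at least 2-fold were both falls (lowest difference of the list, -1.49). Of the 24 luminal markers in the table, 12 were under 1 CPM in all 6 libraries, among them PGR, FOXA1, ELF5 and KIT.

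**Figure D3:**
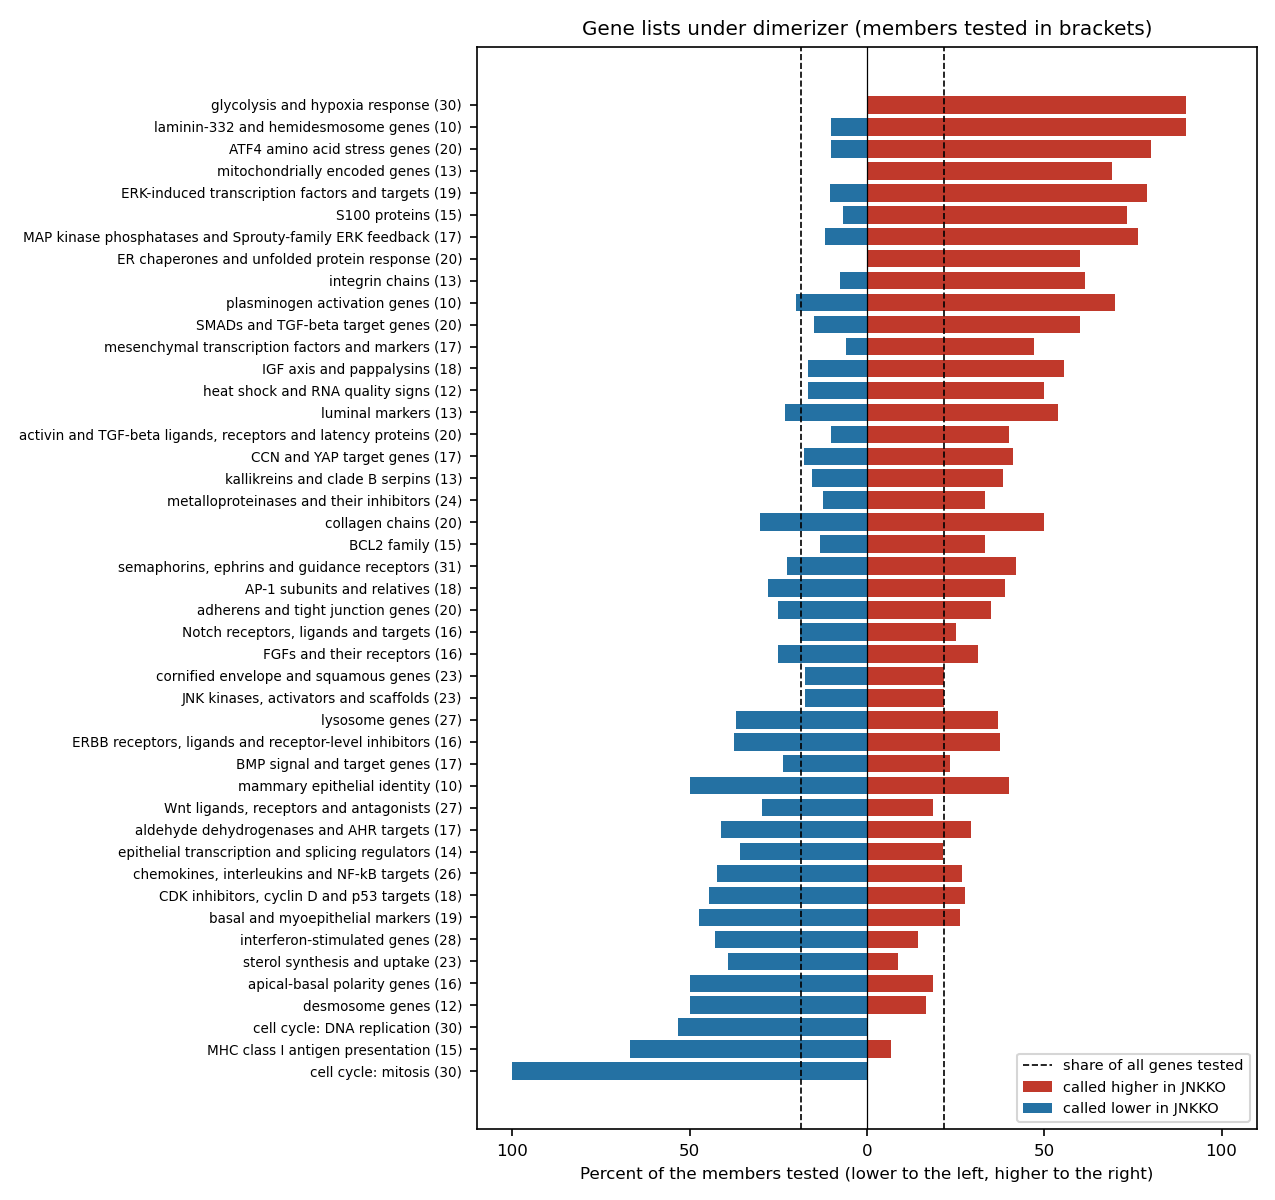
Share of the tested members of each list called higher (red, right) or lower (blue, left) in JNKKO under dimerizer, for lists with at least 10 members tested (number in brackets), with dashed lines at the shares of all genes tested (21.6% and 18.5%). Mitosis genes are lower in 30 of 30 and glycolysis and hypoxia genes higher in 27 of 30.

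Genes tied to ERK, a MAP kinase cascade downstream of HER2, were mostly higher, here and in control acini, which had no dimerizer. MAP kinase phosphatases and Sprouty-family genes, several but not all of which are induced by ERK and act back on it, had 13 higher and 2 lower of 17 tested (median 0.50). SPRY4 read 144, 174 and 158 in JNKKO and 37.9, 34.54 and 31.04 in WT (2.21 ± 0.12, adjusted p = 4.51e-09) and DUSP5 23.6, 23.7 and 23.3 in JNKKO and 7.005, 6.54 and 6.74 in WT (1.80 ± 0.09, adjusted p = 9.53e-16). DUSP7 (0.79 ± 0.05), SPRED2 (0.59 ± 0.06) and SPRED3 (1.82 ± 0.15) also rose, as did the ERK phosphatase DUSP6 (0.90 ± 0.09). The 2 that fell were DUSP16 (-0.35 ± 0.06) and DUSP8, which had under 1 CPM in all 6 libraries. ERK-induced transcription factors and targets had 15 higher and 2 lower of 19 tested (median 0.71): the secreted neuropeptide precursor VGF rose from 5.01 ± 0.406 to 26.6 ± 2.08 (2.41 ± 0.10), EGR1 from 104 ± 6.77 to 238 ± 41.6 (1.19 ± 0.18), PHLDA1 from 48.8 ± 4.27 to 138 ± 13.6 (1.51 ± 0.10), the receptor EPHA2 by 0.79 ± 0.06, IER2 by 0.78 ± 0.04 and MYC by 0.42 ± 0.04. In control the phosphatase and Sprouty list had 13 higher and 2 lower (median 0.56), and the ERK-induced list 14 and 2 (median 0.80). With TGF-beta1 these lists had 11 and 1 (median 0.36) and 12 and 3 (median 0.31).

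ERBB receptors, ligands and inhibitors had 6 higher and 6 lower of 16 tested (median -0.06), but 4 were higher without JNKKO replicate 2 or any 1 WT library, with the replicate block, with the 6 libraries alone and on TPM. The ligand gene AREG read 388, 405 and 402 in JNKKO and 105.2, 106 and 100.4 in WT (1.94 ± 0.11, adjusted p = 1.06e-08), TGFA rose by 0.90 ± 0.05, EREG by 1.03 ± 0.15 and the feedback inhibitor ERRFI1 by 0.49 ± 0.04. ERBB3 fell from 12.3 ± 0.763 to 7.49 ± 0.344 (-0.71 ± 0.09), and the ligand gene EPGN fell too (-0.63 ± 0.08). EGFR was called higher by 0.12 ± 0.05 (adjusted p = 0.0322), but it lost the call in 6 alternatives and had the opposite sign on TPM. AP-1 subunits and relatives had 7 higher and 5 lower of 18 tested (median 0.11), but 5 and 7 on log2(TPM + 1). FOSL1 read 28.2, 30.3 and 29.7 in JNKKO and 16.6, 16.1 and 14.9 in WT (0.89 ± 0.07), JUNB rose from 129.6 ± 3.64 to 244 ± 21.4 (0.91 ± 0.10), FOS by 0.88 ± 0.16 and MAFF by 0.71 ± 0.06, while MAF (-1.07 ± 0.09) and FOSL2 (-0.32 ± 0.05) fell. JUN, the substrate for which JNK is named, read 98.4, 84.1 and 103 in JNKKO and 82.5, 83.99 and 79.3 in WT (0.21 ± 0.07, adjusted p = 0.0168), a call lost on TPM and without JNKKO replicate 1, JNKKO replicate 3 or WT replicate 3. JNK kinases, activators and scaffolds had 5 higher and 4 lower of 23 tested (median -0.02), a share close to that of all genes, but 4 and 10 on log2(TPM + 1). MAP3K9 (0.65 ± 0.05) and MAP4K4 (0.58 ± 0.05) rose, and MAP3K12 (-0.54 ± 0.08) and TNIK (-0.51 ± 0.07) fell.

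Proliferation genes were lower in JNKKO under dimerizer. Mitosis genes, which encode the spindle, kinetochore and mitotic kinases, had 0 higher and 30 lower of 30 tested (median -0.60, range -0.94 to -0.29); without JNKKO replicate 2, 27 were lower and 0 higher, the same counts as without WT replicate 2. CENPF, a kinetochore protein, read 64.2, 61.4 and 70.7 in JNKKO and 116, 144 and 117 in WT (-0.94 ± 0.11, adjusted p = 1.54e-05), and MKI67, the proliferation marker, 41.9, 36.7 and 41.3 in JNKKO and 60.96, 78.2 and 62.8 in WT (-0.76 ± 0.14, adjusted p = 0.000903). For both genes WT replicate 2 was the highest of the 6 libraries and JNKKO replicate 2 the lowest, and the genotypes did not overlap. The cell cycle transcription factor MYBL2 (-0.94 ± 0.13), cyclin B2 (CCNB2, -0.63 ± 0.10), the spindle gene NUSAP1 (-0.58 ± 0.09) and the kinetochore motor CENPE (-0.61 ± 0.10) fell. DNA replication genes had 0 higher and 16 lower of 30 tested (median -0.23): TYMS fell from 34.7 ± 0.575 to 21.4 ± 1.55 (-0.70 ± 0.06), and PCNA (-0.46 ± 0.05) and RRM1 (-0.22 ± 0.04) fell. Of the replication genes, 9 were lower and 1 higher without JNKKO replicate 2, and 10 were lower and 1 higher without WT replicate 2. In these bulk samples, fewer cycling cells and less RNA of these genes per cell cannot be told apart.

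CDK inhibitors, D cyclins and p53 targets had 5 higher and 8 lower of 18 tested (median -0.08). CCND2 rose by 0.50 ± 0.04, and the p53 targets TP53INP1 (39.1 ± 1.59 in JNKKO and 81.8 ± 2.56 in WT, -1.06 ± 0.05), ZMAT3 (-0.44 ± 0.04), SESN1 (-0.46 ± 0.04) and RRM2B (-0.34 ± 0.04) fell. The BCL2 family, which decides on apoptosis, had 5 higher and 2 lower of 15 tested (median 0.02), but 3 and 5 on log2(TPM + 1). The survival gene MCL1 read 1435, 1528 and 1512 in JNKKO and 736, 737 and 744 in WT (1.01 ± 0.04, adjusted p = 1.48e-17), and BCL2L1, which encodes BCL-XL, rose by 0.54 ± 0.05. Among pro-death members BIM (BCL2L11, -0.48 ± 0.06) and PUMA (BBC3, -0.48 ± 0.10) fell and HRK rose (0.55 ± 0.11).

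Glycolysis and stress response genes were mostly higher in JNKKO. Glycolysis and hypoxia response genes had 27 higher and 0 lower of 30 tested (median 0.47), and 29 were higher without JNKKO replicate 2. The oxygen-sensing prolyl hydroxylase EGLN3 rose from 11.4 ± 1.02 to 66.9 ± 10.8 (2.55 ± 0.26), the glucose transporter SLC2A3 from 3.45 ± 0.518 to 14.9 ± 0.821 (2.12 ± 0.23), NDRG1 from 779 ± 20.04 to 1881 ± 138 (1.27 ± 0.09) and P4HA1 from 46.2 ± 0.732 to 95.1 ± 8.03 (1.04 ± 0.06). The core enzymes moved less, with ALDOA at 0.52 ± 0.04, LDHA at 0.41 ± 0.04 and PKM at 0.34 ± 0.03. CA9, a hypoxia-induced carbonic anhydrase, read 47.6, 28.96 and 49.7 in JNKKO and 7.47, 11.1 and 7.89 in WT (2.25 ± 0.39, adjusted p = 0.000426), with JNKKO replicate 2 the lowest of the JNKKO libraries. Genes of the ATF4 amino acid stress response had 16 higher and 2 lower of 20 tested (median 0.49): ATF4 rose by 0.41 ± 0.04, DDIT4 by 0.59 ± 0.04, the mitochondrial folate enzyme MTHFD2 from 65.7 ± 2.73 to 132 ± 21.1 (1.01 ± 0.08) and VLDLR by 1.59 ± 0.20. ER chaperones and unfolded protein response genes had 12 higher and 0 lower of 20 tested (median 0.17), led by HSPA5, the chaperone BiP (548 ± 41.1 in JNKKO and 344 ± 8.52 in WT, 0.67 ± 0.04), MANF (0.65 ± 0.06) and HSP90B1 (0.43 ± 0.04). In ATF4 targets JNKKO replicate 2 was often the highest: MTHFD2 read 115, 155 and 124 and STC2 96.01, 201 and 107 over the JNKKO libraries.

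Sterol synthesis and uptake genes had 2 higher and 9 lower of 23 tested (median -0.04), with LSS (-0.57 ± 0.04) and STARD4 (-0.39 ± 0.04) lower, MSMO1 higher (0.35 ± 0.04) and 14 lower on TPM. Mitochondrially encoded genes had 9 higher and 0 lower of 13 tested (median 0.19), but 4 and 2 on log2(TPM + 1), with MT-ND2 at 6701 ± 203 in JNKKO and 5004 ± 117 in WT (0.42 ± 0.04). Lysosome genes had 10 higher and 10 lower of 27 tested (median -0.05), but 5 and 15 on log2(TPM + 1): the proteases CTSB (0.94 ± 0.04) and CTSC (0.81 ± 0.04) rose and CTSD (-0.38 ± 0.04), CTSF (-0.45 ± 0.05) and GPNMB (-1.13 ± 0.26) fell. Aldehyde dehydrogenases and AHR targets had 5 higher and 7 lower of 17 tested (median -0.04), and 4 were lower without JNKKO replicate 3; next to the large rises above, ALDH3A2 (-0.49 ± 0.05) fell and ALDH3B1 (0.85 ± 0.09) rose. S100 proteins had 11 higher and 1 lower of 15 tested (median 0.51), among them S100A2 (0.70 ± 0.06), S100A10 (0.81 ± 0.06), S100A11 (0.71 ± 0.04) and S100A14 (0.47 ± 0.03).

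Antigen presentation genes were mostly lower in JNKKO, and interferon genes were more often lower than higher. MHC class I genes, which load and show peptides to T cells, had 1 higher and 10 lower of 15 tested (median -0.24). The peptide transporter TAP1 read 59.3, 57.3 and 61.02 in JNKKO and 105.2, 104 and 111 in WT (-0.85 ± 0.05, adjusted p = 1.06e-12), the MHC transactivator NLRC5 9.05, 7.82 and 7.56 in JNKKO and 15.7, 15.9 and 16.97 in WT (-0.999 ± 0.11), and B2M fell (-0.38 ± 0.05). HLA-B fell (-0.26 ± 0.05); class I genes are similar in sequence, and how reads were shared between them can affect these values. Interferon-stimulated genes had 4 higher and 12 lower of 28 tested (median -0.18), or 6 and 9 without JNKKO replicate 2. IRF1 (-0.71 ± 0.07), IFIH1 (-0.61 ± 0.09) and OAS3 (-0.38 ± 0.05) fell, and OAS2 (1.35 ± 0.16) and ISG20 (1.29 ± 0.12) rose. Chemokines, interleukins and NF-kB targets had 7 higher and 11 lower of 26 tested (median 0.05). Beside CXCL14, CSF1 read 16.1, 13.03 and 14.4 in JNKKO and 25.9, 28.4 and 30.8 in WT (-0.97 ± 0.08), IL32 (-1.25 ± 0.14) and the NF-kB inhibitor TNFAIP3 (-0.48 ± 0.05) fell, whereas CCL20 rose from 4.27 ± 0.266 to 9.47 ± 2.19 (1.16 ± 0.14) and IL1B read 9.695, 21.3 and 8.95 in JNKKO and 4.15, 3.09 and 3.82 in WT (1.87 ± 0.29), JNKKO replicate 2 being the highest.

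Other signalling lists had changes in both directions, beside 21.6% higher and 18.5% lower of all genes tested. The IGF axis and pappalysins had 10 higher and 3 lower of 18 tested (median 0.18): besides PAPPA2, HTRA1 and IRS2 (96.4 ± 3.58 in JNKKO and 47.3 ± 0.540 in WT, 1.03 ± 0.06) rose and the binding proteins IGFBP2 (-1.05 ± 0.13) and IGFBP3 fell. FGFs and their receptors had 5 higher and 4 lower of 16 tested (median -0.06), with FGFR3 lower (-0.67 ± 0.05) and FGFRL1 (0.62 ± 0.06), SDC1 (0.81 ± 0.08) and SDC4 (0.35 ± 0.04) higher. Semaphorins, ephrins and guidance receptors had 13 higher and 7 lower of 31 tested (median 0.13), with EFNB2 (1.01 ± 0.06), SEMA4B (0.99 ± 0.05), SEMA4C (0.80 ± 0.06) and SEMA3A (2.10 ± 0.26) higher. Notch genes had 4 higher and 3 lower of 16 tested (median 0.06), shares near those of all genes, but 3 and 5 on log2(TPM + 1). The targets HEY1 (2.00 ± 0.13) and HES1 (0.57 ± 0.07) rose and the receptor NOTCH1 fell (-0.49 ± 0.06). Wnt genes had 5 higher and 8 lower of 27 tested (median -0.10), with WNT7A (2.20 ± 0.15) and FZD7 (0.83 ± 0.10) higher and LGR4 (-0.66 ± 0.06), FZD6 (-0.29 ± 0.05) and SFRP1 (-0.35 ± 0.05) lower. CCN and YAP targets had 7 higher and 3 lower of 17 tested (median 0.18), but 5 and 4 without JNKKO replicate 2 and 4 and 5 on log2(TPM + 1). The ectonucleotidase NT5E, known as CD73, read 365, 330.2 and 376 in JNKKO and 58.1, 49.01 and 50.1 in WT (2.77 ± 0.14, adjusted p = 4.1e-09). Tissue factor (F3) rose by 1.19 ± 0.10 and AXL by 0.44 ± 0.04, and TEAD1 fell (-0.24 ± 0.04). Kallikreins and clade B serpins had 5 higher and 2 lower of 13 tested (median 0.66), or 6 and 1 without JNKKO replicate 2. Maspin (SERPINB5) rose (0.66 ± 0.04) and SERPINB13 fell (-1.94 ± 0.19). Cornified envelope and squamous genes had 5 higher and 4 lower of 23 tested (median -0.12), shares near those of all genes (21.6% and 18.5%). Without JNKKO replicate 3 the counts were 3 and 4, and on log2(TPM + 1) they were 4 and 5. KRT16 (0.69 ± 0.07) and TGM1 (0.55 ± 0.08) rose and FLG fell (-0.79 ± 0.11).

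Markers of other cell types and of RNA quality were measured beside these groups, and their part in the results was not tested. Of 12 immune markers, 6 were under 1 CPM in all 6 libraries, among them PTPRC, CD3D and CD3E, and the summed level was 68.2 to 83.3 CPM in JNKKO and 25.1 to 29.7 in WT. That sum was led by CD68 (47.3, 42.1 and 47.5 in JNKKO and 8.66, 8.43 and 9.27 in WT, 2.37 ± 0.13) and CSF1R (1.36 ± 0.13). The sum does not stand for the list: of 8 immune markers tested, 2 were higher and 1 lower (median -0.70, range -1.22 to 2.37). Of 10 endothelial markers, 7 were under 1 CPM, including CDH5 and VWF; the sums were 34.1 to 40.4 and 27.7 to 28.96, TEK being higher and KDR lower (-1.05 ± 0.07). Of 12 fibroblast markers, 7 were under 1 CPM, including PDGFRA and COL3A1; the sums were 92.5 to 113 and 91.1 to 95.7, with COL6A3 higher (2.83 ± 0.33). Of 7 adipocyte markers, 5 were under 1 CPM. Heat shock and RNA quality genes had 6 higher and 2 lower of 12 tested (median 0.10), but 2 and 3 on log2(TPM + 1); MALAT1, a nuclear RNA, rose by 0.37 ± 0.07.

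The genotype difference under dimerizer was then set against that in the other treatments, which share no library with it. The title and the genotype tag of WT dimerizer TGFb1 replicate 3 disagree, and it is grouped by its title. The difference itself differed from that in control for 7200 of 16911 genes (42.6%, interaction contrast of the same edgeR fit) and from that with TGF-beta1 for 5570 (32.9%), or 5067 without the library of conflicting labels. In the first contrast 21.4% of genes were called positive and 21.2% negative, and in the second 18.8% and 14.1%. Between genotypes in control 49.3% of genes were called (25.8% higher and 23.5% lower in JNKKO), and with TGF-beta1 52.9% (26.5% and 26.4%). Of the 6775 genes called under dimerizer, 2465 were also called in the same direction in control, 1760 in the opposite direction and 2550 not at all; with TGF-beta1, 3900 were called in the same direction, 832 in the opposite and 2043 not. Over all 16911 genes (genes are not replicates) the differences had Pearson's r of 0.233 (Spearman's rho 0.098) between dimerizer and control and 0.503 (0.422) between dimerizer and dimerizer with TGF-beta1.

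**Figure D4:**
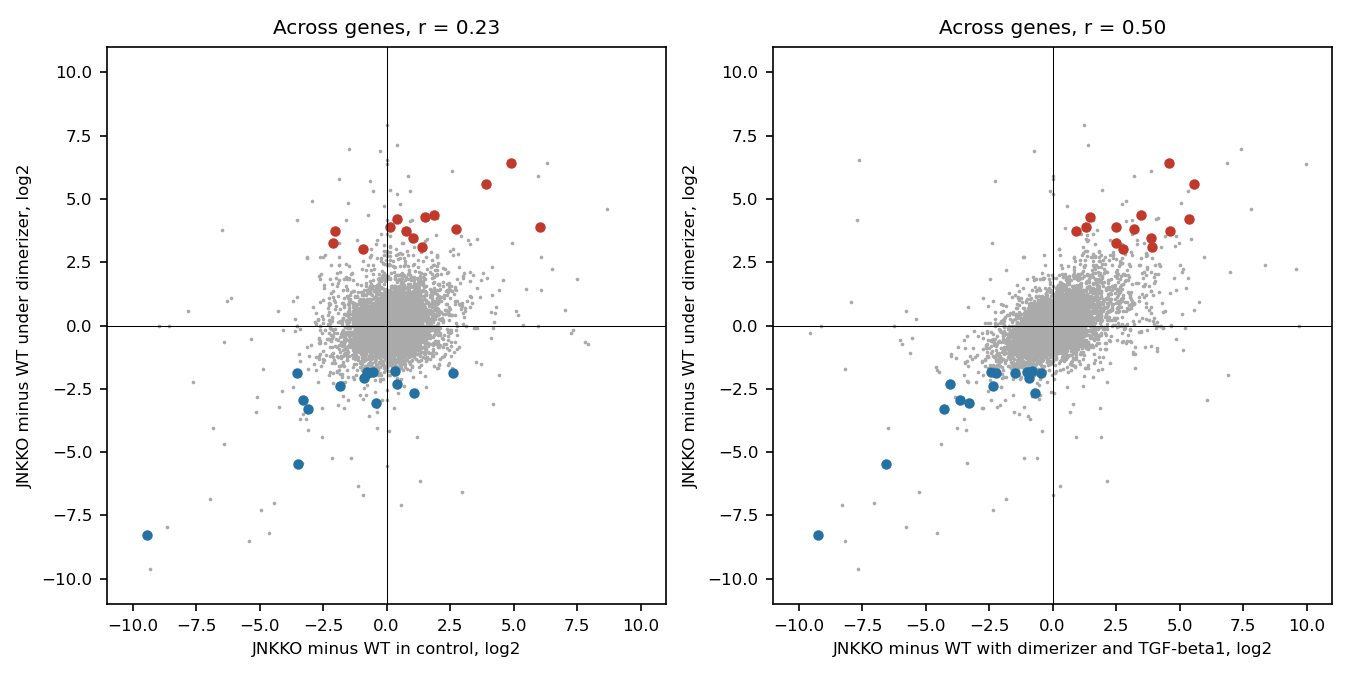
Difference between genotypes under dimerizer (vertical) against that in control (left) and with dimerizer and TGF-beta1 (right), each JNKKO minus WT on the log2 scale, for 16911 genes (grey). Red marks 14 of the 15 largest rises under dimerizer and blue the 15 largest falls; across genes r is 0.23 on the left and 0.50 on the right.

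The mitosis list had opposite directions between treatments. Its 30 genes were lower in JNKKO under dimerizer, but 28 were higher in control (median 0.69) and 30 with TGF-beta1 (median 0.89), and the interaction was called for 30 of 30 in both contrasts. CENPF differed by 1.05 in control and 1.002 with TGF-beta1, against -0.94 under dimerizer (interaction adjusted p = 2.96e-07 and 1.01e-06). DNA replication genes went the same way, 26 being higher in control and 22 with TGF-beta1, with interactions for 29 and 26 of 30. Mitochondrially encoded genes, 9 of which were higher under dimerizer, were lower in 13 of 13 in both other treatments, with interactions for 13 of 13. All mitochondrially encoded genes, ribosomal RNAs included, took 15.1% to 15.3% of counts in WT control and 10.7% to 10.9% in JNKKO control. Under dimerizer their shares overlapped, at 8.73% to 9.01% in JNKKO and 8.88% to 9.13% in WT. The called differences are after TMM scaling, with factors of 0.962 to 0.967 in JNKKO and 1.032 to 1.038 in WT there. Laminin-332 and hemidesmosome genes had their largest median under dimerizer (0.88, against 0.26 in control and 0.14 with TGF-beta1): LAMB3 differed by 0.50 in control and 0.97 with TGF-beta1, and 9 of 10 genes of the list had an interaction in each contrast. INHBA differed by 1.05 in control, where the interaction passed (adjusted p = 0.000385), and by 3.87 with TGF-beta1, where it did not (adjusted p = 0.231). MHC class I genes were lower under dimerizer and with TGF-beta1 (12 lower, 0 higher) but higher in control (10 higher, 0 lower); TAP1 differed by 0.39 in control and -0.86 with TGF-beta1. Glycolysis and hypoxia genes were mostly higher in all 3 treatments, with 18 higher and 4 lower in control and 28 higher and 1 lower with TGF-beta1. MAPK9 was lower in all 3 (-0.49 and -0.34 in control and with TGF-beta1), and its interactions did not pass (adjusted p = 0.558 and 0.222), whereas MAPK8 differed by 0.47 and -0.32.

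**Figure D5:**
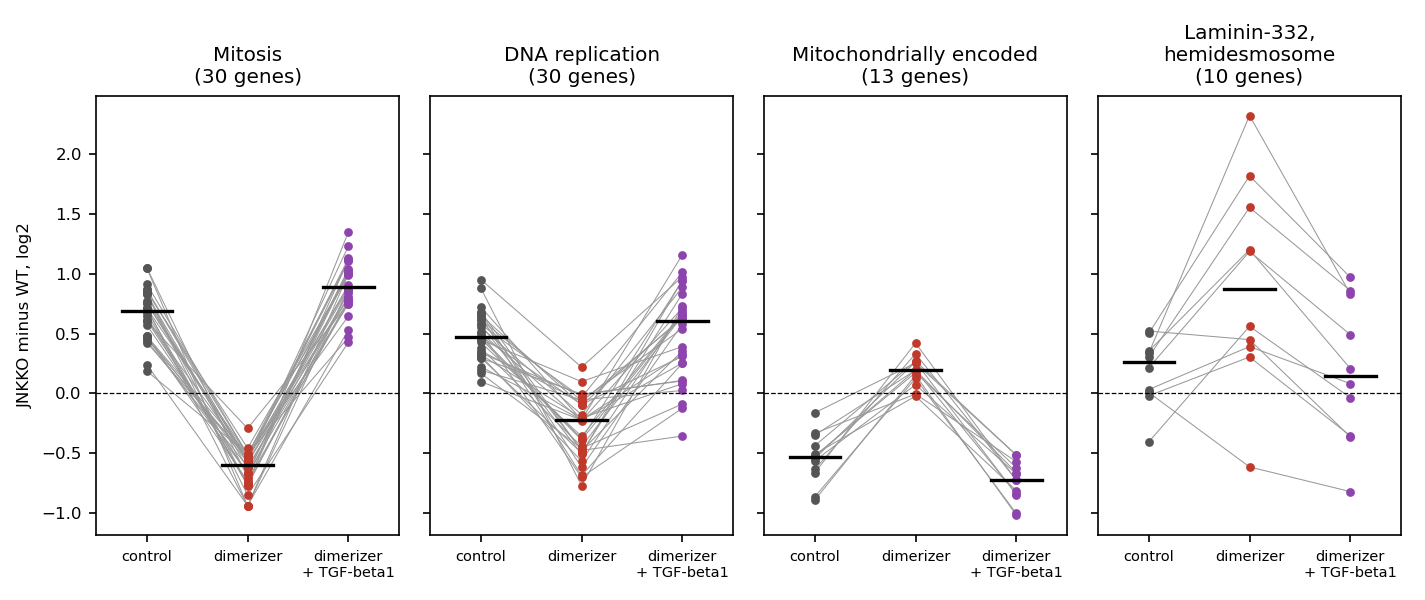
Difference between genotypes (JNKKO minus WT, log2) of each gene in 4 lists under control, dimerizer, and dimerizer with TGF-beta1; grey lines join 1 gene and black bars are medians. Mitosis genes lie below 0 only under dimerizer (median -0.60 against 0.69 and 0.89), mitochondrially encoded genes are highest there, and laminin-332 genes have their largest median there.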

How the data were processed

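RNA was selected with oligo(dT), depleted of ribosomal RNA and sequenced as paired reads, per the labels' protocols. The authors deposited expected counts and TPM per gene; the submitters' processing notes name cutadapt, RSEM and hg38. The aligner, annotation, tool versions and strand setting were not given in the sources used here. Of 42141 gene names, 127 had been altered by spreadsheet or text replacement (51 into currency amounts or with a space, 76 with JNKKO in place of E3) and were restored; 42125 (99.96%) then matched GENCODE 29.

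Rounded to integers, the expected counts were fitted with edgeR 4.0.16 (quasi-likelihood test, TMM scaling, R 4.3.3), all 18 libraries in 1 fit over 16911 genes that passed edgeR's low-count filter. The biological coefficient of variation was 4.47%. The main alternatives were limma 3.58.1 on the deposited TPM (log2 of TPM plus 1 or 0.1, without TMM scaling) and DESeq2 1.42.0. Others were other scalings and filters, a replicate block and leaving out each library. The test code was run on simulated counts, with the same dispersion for all genes and a small share of them changed, evenly up and down. That setting has far fewer changed genes than these data, so it does not check the scaling or the call counts here. Single genes named by rule were the 15 largest called rises and 15 largest called falls with at least 5 CPM in 1 genotype and no overlap, the genes with most counts at 0 in the other genotype, the leading members of the lists, and the largest interactions; other list members were named after their values were seen, and some genes that the rule names are not reported here. The genes and lists were chosen with earlier results of these data known. Promoters and their coordinates came from RefSeq (GRCh38.p14). Python 3.11.15 was used for tables and figures.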

Additional observations from a re-analysis of the deposited data

Results flagged for a closer look

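The genotype difference under dimerizer differed from that in control, by the interaction contrast of edgeR's quasi-likelihood test, for the genes with the largest such differences (dimerizer minus control, log2). It was more positive under dimerizer for AOX1 (5.76), ITPKA (3.98), PADI4 (3.80), INSC (3.75), SPX (3.59) and CSAR2 (3.52). It was more negative for FGF1 (-4.47), CXCL14 (-3.77), BBOX1 (-3.73), PHACTR3 (-3.60), CALML3 (-3.48) and GPNMB (-3.44). AOX1 itself was lower in JNKKO in control (-2.04) and higher under dimerizer (3.72), and FGF1 was higher in control (2.60) and lower under dimerizer (-1.87).

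Against dimerizer with TGF-beta1, the genotype difference under dimerizer alone was more positive for ALDH1A2 (2.81), HRK (2.80), AOX1 (2.78), INSC (2.60) and TINAGL1 (2.53). It was more negative for A2ML1 (-4.99), ALDH3B2 (-4.94), GFPT2 (-3.54), LPAR3 (-2.98), CA9 (-2.88) and H19 (-2.50). A2ML1, a squamous protease inhibitor, differed by -0.88 under dimerizer and 4.11 with TGF-beta1, and H19, an imprinted noncoding RNA, by 1.20 and 3.69. WT dimerizer TGFb1 replicate 3, whose title and genotype tag disagree, is 1 of the 6 libraries with TGF-beta1 in these contrasts. Under dimerizer alone, the genotype call of A2ML1 was lost without any 1 of the 6 libraries, that of GFPT2 without JNKKO or WT replicate 1 or 3, and that of TINAGL1 without JNKKO replicate 1, WT replicate 1 or WT replicate 2.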

How the results depend on the processing

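Of 279 genes named by the rule, 255 kept their side of the threshold, and their direction where called, under every alternative that tested them. Over 4427 pairs of gene and alternative, 4352 did so, 60 lost the call, 11 gained it and 4 reversed. On TPM, the genes called higher were 1803 (pseudocount 0.1) and 1773 (pseudocount 1), those called lower 5416 and 5425, and with pseudocount 1 the changes of at least 2-fold were 225. On TPM the direction of EGFR (-0.0533 with pseudocount 0.1 and -0.0527 with 1) and HSPD1 (-0.00554 and -0.00553) reversed. A filter at a mean of 5 CPM, which leaves fewer genes tested, left 300 changes of at least 2-fold. Leaving out 1 of the 6 libraries gave 3220 to 3386 genes higher and 2606 to 2898 lower, 842 to 890 of at least 2-fold, 6665 to 7146 interactions with control and 4939 to 5446 with TGF-beta1; without WT dimerizer TGFb1 replicate 3 these were 3624, 3180, 938, 7237 and 5067. The cause of these moves was not tested.

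The replicate numbers are shared between groups, but same-numbered WT and JNKKO libraries did not deviate together (r = -0.022, -0.031 and 0.032), so they were not treated as pairs. With the replicate block 3648 genes were higher, 3106 lower and 892 of at least 2-fold, with 7183 and 5610 interactions; EGFR, A2ML1 and RP11-20G6.3 lost their calls. The genes at 0 in 1 genotype rest on low counts.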

Other observations

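Of 13877 protein-coding genes tested, 6252 were called, 434 at least 2-fold higher in JNKKO and 302 at least 2-fold lower. Of 926 lincRNA genes tested, 196 were called, 55 at least 2-fold higher and 27 at least 2-fold lower, and of 1289 antisense genes 197 were called. Over all 16911 genes tested, 6775 were called (40.1%), 542 at least 2-fold higher (3.21%) and 368 at least 2-fold lower (2.18%). The difference between gene types was not tested, and with no stated strand setting, reads of antisense genes and their partners cannot be told apart.

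Over genes of at least 5 CPM, the median difference of each of 22 chromosomes (1 autosome, Y and the mitochondrial genome are not reported here) lay between -0.02 and 0.08, the highest being chromosome 19.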
